A study of Mus musculus with 20 samples.

Results

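The collagen genes were taken as every gene of the kidney expression table whose symbol is Col, a number, the letter a and a number, and 37 of 19940 genes met that rule. They comprised 8 chains of the fibrillar types I, III, V and XI, 8 chains of the basement membrane types IV, XV and XVIII, and 21 chains of other types. Whole kidneys of 20 male mice were profiled, with 1 library per mouse and 5 mice in each group: G3 Tert-/- mice aged 47 weeks, Tert+/+ mice aged 47 weeks, G3 Tert-/- mice aged 7 weeks and Tert+/+ mice aged 7 weeks. The product of Tert is the catalytic subunit of telomerase, the enzyme that extends telomeres, and G3 marks the third generation of mice bred without it. The design crosses genotype with age, and the series title names kidney fibrosis, the scarring in which collagen accumulates. The labels name no agent given to these mice. They list the libraries as separate samples and give no litter, cage or batch, so p-values measure the spread between these mice. Library names run in a separate block of numbers for each group, and the labels do not say what the blocks stand for. Any difference in handling between groups therefore cannot be told apart from age or genotype.

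Collagens are proteins of the extracellular matrix in which 3 chains wind into a triple helix, and each chain has its own gene. Types I and III form the fibrils of the kidney interstitium and are made mainly by fibroblasts and pericytes. Type IV forms the network of basement membranes around tubules, glomerular capillaries and vessels: the α1 and α2 chains are found in most of them, whereas the α3, α4 and α5 chains make the mature network of the glomerular filter. A transcript level reflects both the synthesis and the decay of messenger RNA, and not the amount of collagen already deposited in the matrix.

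Every library was made from the 3′ end of polyadenylated RNA, so that 1 transcript gives about 1 read whatever its length, and the values below are normalized read counts. Libraries held 7161690 to 9757594 reads. On the first principal component, which carried 22.0% of the variance, 2 libraries lay apart: Tert+/+ at 7 weeks, replicate 1 (67.5) and Tert+/+ at 47 weeks, replicate 4 (56.6), against -39.4 to 21.01 in the other 18. Results are therefore also given without both. Since both are Tert+/+ libraries, age differences within G3 Tert-/- mice then keep their size. Only the spread estimated over all 4 groups and the adjustment change for them. Kidney identity was clear from 8 proximal tubule markers, whose summed count was 43193 to 65478 in all libraries. Tert averaged 6.99 in G3 Tert-/- kidneys against 11.9 in Tert+/+ kidneys at 47 weeks (exact two-sided permutation p = 0.0794), and 3.11 against 9.72 at 7 weeks (exact p = 0.0238). The sources used here do not say which part of Tert is deleted, so reads from the 3′ end may lie outside it and check the genotype only in part.

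The α1 chains of type I and type III collagen and the ubiquitous α1 and α2 chains of type IV had fewer transcripts in older kidneys of both genotypes, whereas the α3 and α4 chains of type IV did not pass, with log2 fold changes from -0.25 to -0.08. Of the 37 genes, 27 had a count of at least 10 in at least 5 libraries and were tested. In G3 Tert-/- kidneys, 7 of these 27 fell with age and 0 rose (limma, Benjamini-Hochberg adjusted p under 0.05). Over all 14630 tested genes, 2.24% passed in that comparison, 1.31% as lower and 0.93% as higher. Col23a1 was the member with a higher value at an unadjusted p under 0.05, edgeR also called 0 members higher, and DESeq2 called 1, which was Col23a1. In Tert+/+ kidneys, 5 of 27 fell and 0 rose, against 0.649% of all genes that passed, 0.246% as lower and 0.403% as higher. edgeR and DESeq2 likewise called 0 members higher in Tert+/+, where no higher member had an unadjusted p under 0.05. Col1a1, Col3a1, Col4a1 and Col4a2 passed in both genotypes. The genotypes share no libraries, but both tests use 1 spread estimated over all 20 libraries and are not independent. At an unadjusted p under 0.05 there were 14 members in G3 Tert-/- (14.9% of all genes) and 10 in Tert+/+ kidneys (10.6%). Without any overlap of the ages, 7 members were lower (2.66% of all genes) and 1 was higher (1.94%) in older G3 Tert-/- kidneys, and 7 were lower (1.25%) in older Tert+/+ kidneys. Of the 27 members, 21 had a log2 fold change below 0 in each genotype, compared with 49.5% of all genes in G3 Tert-/- and 49.3% in Tert+/+ kidneys. The median log2 fold change of the members was -0.34 in G3 Tert-/- and -0.32 in Tert+/+ kidneys, and that of all tested genes was 0.00 in both.

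Among the fibrillar chains, Col1a1, which encodes the α1 chain of type I collagen and lies on chromosome 11 (94936224 to 94953042, GRCm38), showed the firmest difference. In G3 Tert-/- kidneys its counts were 161, 152, 129.8, 151 and 128 at 47 weeks, against 328, 449, 838, 628 and 418 at 7 weeks. Tert+/+ kidneys had 143, 170.4, 139, 166 and 224 at 47 weeks and 436, 409.9, 356, 356 and 321 at 7 weeks. Every older kidney lay below every younger kidney of its genotype, and the younger G3 Tert-/- mice spread most. Col1a1 fell 3.48-fold with age in G3 Tert-/- kidneys, a log2 difference of -1.80 (SE 0.18) with an adjusted p of 2.07e-06, and 2.24-fold in Tert+/+ kidneys, -1.17 (SE 0.18) with an adjusted p of 0.00137.

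Col1a2, on chromosome 6, encodes the α2 chain that joins 2 α1 chains in a type I molecule. Its counts in G3 Tert-/- kidneys were 617, 477, 516, 553 and 441 at 47 weeks and 766, 898, 1484, 910.2 and 942 at 7 weeks. Those in Tert+/+ kidneys were 484, 527, 515, 232 and 571 at 47 weeks and 375, 645, 1067, 909 and 889 at 7 weeks. The ages did not overlap in G3 Tert-/- mice, whereas in Tert+/+ mice the younger library of 375 lay among the older ones, and the lowest value of each age came from the 2 libraries that lay apart. The log2 fold change was -0.91 (SE 0.25) in G3 Tert-/- kidneys (adjusted p = 0.0529) and -0.72 (SE 0.25) in Tert+/+ kidneys (adjusted p = 0.246), and neither passed. Without both libraries that lay apart, Col1a2 passed in G3 Tert-/- (adjusted p = 0.000514) and in Tert+/+ kidneys (adjusted p = 0.0311). The G3 Tert-/- difference stayed at -0.91, since no G3 Tert-/- library was removed.

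The main chain of type III collagen, which is laid down with type I in the interstitium, is encoded by Col3a1. It had 177, 125, 124, 146 and 142 at 47 weeks and 276, 446, 929, 393 and 454 at 7 weeks in G3 Tert-/- kidneys. In Tert+/+ kidneys it had 107, 158, 140.2, 78.8 and 196 at 47 weeks and 286, 372, 341, 417 and 417 at 7 weeks. The ages were again fully separate in both genotypes, and 1 younger G3 Tert-/- mouse, at 929, stood well above its group. That library, replicate 3, also held the highest Col1a1 and Col1a2 counts and had a summed count of 6 adipocyte markers of 9777, against 277 to 1795 in the other 4. The fall was 3.23-fold in G3 Tert-/- kidneys, a log2 difference of -1.69 (SE 0.24, adjusted p = 0.000209), and 2.79-fold in Tert+/+ kidneys, -1.48 (SE 0.24, adjusted p = 0.00189). Without replicate 3, the differences in G3 Tert-/- kidneys were -1.44 for Col3a1 (adjusted p = 0.000313) and -1.62 for Col1a1 (adjusted p = 2.23e-06).

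Of the type V chains, which start the assembly of type I fibrils, Col5a2 lies next to Col3a1 on chromosome 1, tail to tail with 24614 bp between them. Col5a2 counts were 97.2, 65.5, 63.4, 68.4 and 115 at 47 weeks against 109, 99.8, 138, 139.5 and 117 at 7 weeks in G3 Tert-/- kidneys. In Tert+/+ kidneys they were 56.99, 79.8, 68.2, 57.4 and 63.4 at 47 weeks against 135, 117, 125, 141 and 157 at 7 weeks. The ages were separate in Tert+/+ mice and overlapped in G3 Tert-/- mice, where 1 older kidney reached 115. Col5a2 fell 2.06-fold in Tert+/+ kidneys (log2 difference -1.04, SE 0.16, adjusted p = 0.00129), and its value in G3 Tert-/- kidneys was -0.58 (SE 0.16, adjusted p = 0.0626). Col5a2 passed in G3 Tert-/- kidneys without replicate 1 or replicate 5 at 47 weeks (adjusted p = 0.0428 and 0.0192) and without both libraries that lay apart (0.0399). The difference between these age effects did not pass (interaction 0.46, SE 0.23, adjusted p = 0.802). Col5a1 and Col5a3 had log2 fold changes of -0.77 and -0.50 in G3 Tert-/- kidneys and -0.32 and 0.04 in Tert+/+ kidneys, and neither gene passed in either genotype. Col11a1 and Col11a2, chains of the type XI collagen of cartilage, averaged 1.998 and 1.58 reads over all libraries and were not tested.

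**Figure D1:**
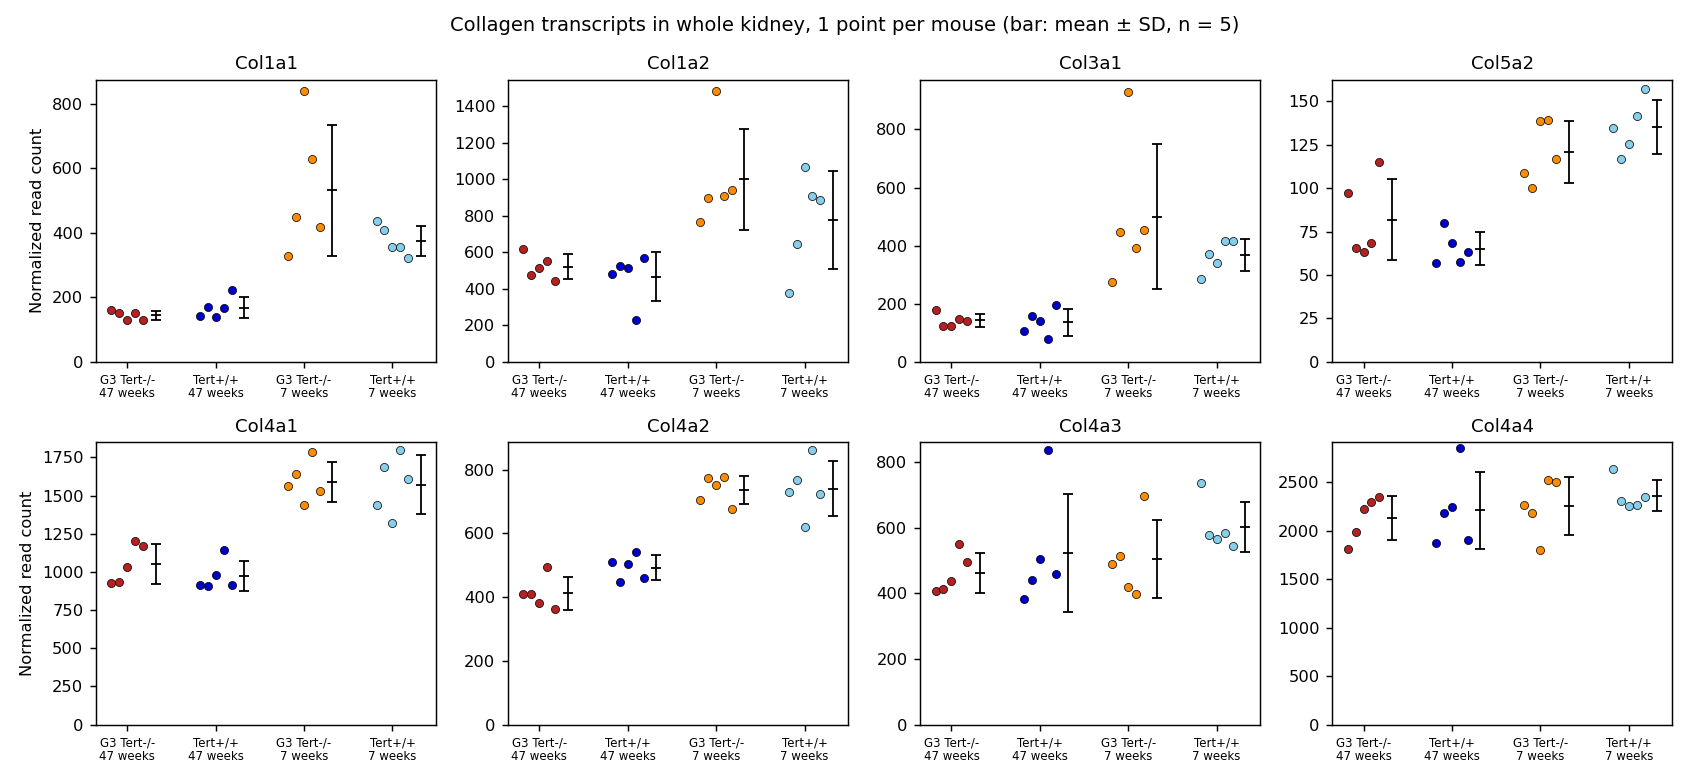
Normalized read counts (vertical axes, linear from 0) of 8 collagen genes in the 4 groups (horizontal axes), 1 point per mouse, with the bar giving the mean ± SD of 5 mice. Older and younger kidneys are separate for Col1a1, Col3a1, Col4a1 and Col4a2 in both genotypes and overlap for Col4a3 and Col4a4.

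Promoter windows from RefSeq (GRCm38.p6, 250 bases before to 50 after a gene's start) were at hand for 30 of the 37 members. The windows of Col1a2 and Col3a1, the type I and type III chains for which one was found, are printed because both genes belong to the fibrillar group with the largest falls, and they differ in base composition (61.0% against 37.7% G and C). Capitals mark the core of the CCAAT box (CCAAT), the GC box (its core is GGGCGG) or the TATA box (its core is TATAAA), searched on either strand, and no match overlapped another in the windows printed. Col1a2 is at chr6:4505368-4505667 on the + strand and Col3a1 at chr1:45311288-45311587 on the + strand.
Col1a2: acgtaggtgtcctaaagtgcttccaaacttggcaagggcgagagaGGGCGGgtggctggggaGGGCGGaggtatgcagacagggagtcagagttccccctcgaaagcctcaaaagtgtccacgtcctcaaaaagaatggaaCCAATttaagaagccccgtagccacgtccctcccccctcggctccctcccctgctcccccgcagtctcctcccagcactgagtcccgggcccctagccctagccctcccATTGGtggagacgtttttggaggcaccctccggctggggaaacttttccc
Col3a1: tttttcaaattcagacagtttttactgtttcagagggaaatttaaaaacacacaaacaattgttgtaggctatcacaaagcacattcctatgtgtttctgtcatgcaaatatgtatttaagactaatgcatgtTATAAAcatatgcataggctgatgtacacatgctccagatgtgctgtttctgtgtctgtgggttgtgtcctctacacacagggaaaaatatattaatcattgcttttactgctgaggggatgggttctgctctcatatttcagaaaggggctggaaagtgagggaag
Col1a2 held 2 CCAAT and 2 GGGCGG matches and Col3a1 held 1 TATAAA match, and these letters describe the windows without showing that any factor binds them.

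Among the basement membrane chains, Col4a1 and Col4a2 fell with age in both genotypes, with little spread between mice. Col4a1 encodes the α1 chain of type IV collagen, and its counts in G3 Tert-/- kidneys were 926, 935, 1033, 1205 and 1172 at 47 weeks, against 1566, 1640.1, 1435, 1784 and 1533 at 7 weeks. Tert+/+ kidneys had 917, 911, 980.5, 1141 and 912 at 47 weeks, against 1439.7, 1688, 1319, 1802 and 1612 at 7 weeks. All 10 older kidneys were below all 10 younger ones. Col4a1 fell 1.51-fold in G3 Tert-/- kidneys (log2 difference -0.60, SE 0.11, adjusted p = 0.0022) and 1.61-fold in Tert+/+ kidneys (-0.69, SE 0.11, adjusted p = 0.00114).

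Col4a2, whose α2 chain joins 2 α1 chains in the ubiquitous type IV molecule, had 409, 409, 382, 495 and 362 at 47 weeks and 706, 774, 752, 776 and 675 at 7 weeks in G3 Tert-/- kidneys. Its counts in Tert+/+ kidneys were 509, 446, 505, 541 and 461 at 47 weeks and 729, 768, 620.1, 860.5 and 724 at 7 weeks. Older kidneys were again all below younger ones in both genotypes. The gene fell 1.8-fold in G3 Tert-/- kidneys (log2 difference -0.84, SE 0.10, adjusted p = 1.58e-05) and 1.5-fold in Tert+/+ kidneys (-0.58, SE 0.10, adjusted p = 0.00313).

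Col4a1 and Col4a2 stand head to head on chromosome 8, on opposite strands, with starts 21 bp apart in GENCODE release M21, so that their first 22 bases overlap and both genes are transcribed outward from 1 stretch of DNA. Their windows are printed because these partners fell together, and they share 78 bases. The Col4a1 window is chr8:11312777-11313076 on the - strand and that of Col4a2 is chr8:11312555-11312854 on the + strand, each written in the direction of its own gene with the same letters in capitals.
Col4a1: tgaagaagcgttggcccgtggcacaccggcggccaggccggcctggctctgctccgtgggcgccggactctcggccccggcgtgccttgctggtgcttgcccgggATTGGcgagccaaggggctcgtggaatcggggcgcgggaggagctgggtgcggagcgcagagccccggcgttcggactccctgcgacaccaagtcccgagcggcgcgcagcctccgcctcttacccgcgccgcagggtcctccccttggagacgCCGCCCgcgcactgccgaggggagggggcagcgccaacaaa
Col4a2: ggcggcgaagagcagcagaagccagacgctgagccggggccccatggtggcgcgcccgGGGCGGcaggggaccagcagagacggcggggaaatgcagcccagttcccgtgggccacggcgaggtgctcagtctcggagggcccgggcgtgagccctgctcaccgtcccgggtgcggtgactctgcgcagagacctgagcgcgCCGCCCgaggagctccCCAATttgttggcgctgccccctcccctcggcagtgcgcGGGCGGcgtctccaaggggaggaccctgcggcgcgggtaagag
Col4a1 held 1 CCAAT and 1 GGGCGG match and Col4a2 held 1 and 3, and neither window held TATAAA. Over all 32851 windows in the RefSeq table, 37.4% held CCAAT, 35.7% held GGGCGG and 13.6% held TATAAA. Among the 10 windows of members that fell with age in the mean of both genotypes, described further on, 5, 6 and 1 held them, and among the 12 windows of the other tested members 2, 8 and 1 did.

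The second head-to-head pair, Col4a3 and Col4a4 on chromosome 1, has starts 72 bp apart and encodes chains of the glomerular filter. Col4a3 had 406, 413, 438, 550.5 and 494 at 47 weeks and 489.6, 514, 419, 396 and 697 at 7 weeks in G3 Tert-/- kidneys. In Tert+/+ kidneys it had 382, 439, 503, 834 and 457 at 47 weeks and 734, 578, 564, 583 and 544 at 7 weeks. The ages overlapped in both genotypes, and the highest value of each Tert+/+ group came from a library that lay apart. The log2 fold change with age was -0.11 (SE 0.17) in G3 Tert-/- kidneys (95% interval -0.46 to 0.25) and -0.25 (SE 0.17) in Tert+/+ kidneys (95% interval -0.60 to 0.11). Without both libraries that lay apart, the ages of Tert+/+ mice no longer overlapped for Col4a3, 382 to 503 at 47 weeks and 544 to 583 at 7 weeks, and the value was -0.35 (adjusted p = 0.303). It was -0.43 (adjusted p = 0.184) without replicate 4 at 47 weeks alone.

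Col4a4 gave 1807, 1982, 2221, 2299 and 2348 at 47 weeks and 2261, 2177, 1797, 2524 and 2505 at 7 weeks in G3 Tert-/- kidneys. The Tert+/+ values were 1872, 2182, 2238, 2855 and 1898 at 47 weeks and 2637, 2302, 2249.6, 2265 and 2342 at 7 weeks. The ages overlapped widely in G3 Tert-/- mice, and in Tert+/+ mice the younger range lay within the older one. Its log2 fold change was -0.08 (SE 0.12) in G3 Tert-/- kidneys (95% interval -0.32 to 0.17) and -0.11 (SE 0.12) in Tert+/+ kidneys (95% interval -0.35 to 0.13), and adjusted p for Col4a3 and Col4a4 lay between 0.647 and 0.828. In G3 Tert-/- kidneys the lower ends of both intervals lay above the log2 fold change of Col4a2, which was -0.84. In Tert+/+ kidneys the Col4a3 interval held the Col4a2 value of -0.58, and the Col4a4 interval did not.

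The third pair, Col4a5 and Col4a6, lies on chromosome X with starts 1309 bp apart. Col4a5, the α5 chain of the glomerular filter, had 34.9, 55.3, 48.8, 50.04 and 33.3 at 47 weeks and 50.9, 51.9, 60.3, 59.8 and 62.2 at 7 weeks in G3 Tert-/- kidneys. In Tert+/+ kidneys the counts were 46.6, 42.4, 43.8, 40.5 and 45.6 at 47 weeks and 60.03, 54.97, 74.3, 60.1 and 70.7 at 7 weeks. The ages did not overlap in Tert+/+ mice and overlapped in G3 Tert-/- mice. Log2 fold changes of -0.37 (SE 0.15) in G3 Tert-/- and -0.53 (SE 0.15) in Tert+/+ kidneys did not pass (adjusted p = 0.236 and 0.133). Col4a6 was below the filter, with 8.45, 3.07, 14.5, 3.06 and 6.06 at 47 weeks and 2.73, 2.94, 3.77, 15.8 and 7.50 at 7 weeks in G3 Tert-/- kidneys, and 1.04, 7.88, 1.95, 1.13 and 2.23 at 47 weeks and 6.89, 6.75, 4.89, 3.70 and 6.73 at 7 weeks in Tert+/+ kidneys, and the ages overlapped in both genotypes.

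Col15a1 and Col18a1 encode the collagens that attach basement membranes to the matrix beside them, and the end of the Col18a1 chain is released as endostatin. Col15a1 had 71.8, 49.1, 51.9, 60.3 and 45.5 at 47 weeks and 67.2, 97.9, 136, 122 and 71.8 at 7 weeks in G3 Tert-/- kidneys. In Tert+/+ kidneys it had 55.96, 74.9, 62.3, 46.2 and 56.8 at 47 weeks and 69.9, 81.02, 80.2, 77.6 and 73.2 at 7 weeks. The ages overlapped in both genotypes, in each case through the highest older kidney. Col15a1 fell 1.72-fold in G3 Tert-/- kidneys (log2 difference -0.78, SE 0.18, adjusted p = 0.0236), and the value in Tert+/+ kidneys was -0.38 (SE 0.18, adjusted p = 0.471). The call in G3 Tert-/- was lost without any 1 of 5 libraries, replicates 2 and 5 at 47 weeks and replicates 2, 3 and 4 at 7 weeks, with an adjusted p of 0.0577 to 0.0759.

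Col18a1 counts were 372, 368, 346, 387 and 376 at 47 weeks and 401, 455, 378, 643 and 426 at 7 weeks in G3 Tert-/- kidneys. Tert+/+ kidneys had 287, 325, 356, 411 and 297 at 47 weeks and 558, 450.4, 412, 417 and 395 at 7 weeks. The ages overlapped narrowly in both genotypes. The log2 fold changes of -0.29 (SE 0.13) in G3 Tert-/- and -0.41 (SE 0.13) in Tert+/+ kidneys had adjusted p of 0.296 and 0.196.

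In the remaining collagens, 2 of 14 tested genes fell with age in G3 Tert-/- kidneys, both of type VI, the beaded microfilament collagen that surrounds cells. Over all tested genes, 1.31% passed as lower in that comparison. Col6a1 had 44.4, 31.7, 23.9, 29.6 and 33.3 at 47 weeks and 55.4, 47.95, 65.9, 117 and 69.7 at 7 weeks in G3 Tert-/- kidneys. In Tert+/+ kidneys it had 32.1, 45.3, 46.7, 55.2 and 30.04 at 47 weeks and 95.5, 73.3, 46.9, 64.7 and 56.4 at 7 weeks. The ages were separate in G3 Tert-/- mice and overlapped in Tert+/+ mice. The fall was 2.09-fold in G3 Tert-/- kidneys (log2 difference -1.06, SE 0.24, adjusted p = 0.0153), and the Tert+/+ value was -0.67 (SE 0.24, adjusted p = 0.265).

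Col6a6, a type VI chain of low abundance, had 3.17, 4.09, 1.04, 8.17 and 9.09 at 47 weeks and 14.5, 21.5, 23.5, 23.3 and 31.1 at 7 weeks in G3 Tert-/- kidneys. The Tert+/+ counts were 7.25, 8.87, 8.76, 27.03 and 11.1 at 47 weeks and 7.87, 21.2, 27.4, 16.6 and 15.1 at 7 weeks. All older G3 Tert-/- kidneys were under 10, and the lowest of them was under the 3 reads that a count of 0 allows, whereas 6 Tert+/+ libraries, outside this comparison, were at 10 or more and met the filter without it. It fell 4.41-fold in G3 Tert-/- kidneys on the scale of log2(count + 1) (difference -2.14, SE 0.41, adjusted p = 0.00527), with a Tert+/+ value of -0.51 (SE 0.41, adjusted p = 0.701). The size of the fall in G3 Tert-/- kidneys depends on the pseudocount, at -2.29 with 0.5 and -1.50 with 5, and Col6a6 passed with both. Col6a4, Col6a5 and Col6a6 are related neighbours on chromosome 9, and how reads shared between close copies were counted could not be checked.

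Col14a1, a collagen that binds the surface of fibrils, had 398, 328, 246, 391 and 300.1 at 47 weeks and 431, 429, 432, 343 and 437 at 7 weeks in G3 Tert-/- kidneys. In Tert+/+ kidneys it had 314, 349.7, 358, 328 and 347 at 47 weeks and 493, 499.6, 409, 431 and 478 at 7 weeks. The ages were separate in Tert+/+ mice only. Its log2 fold changes were -0.33 (SE 0.12) in G3 Tert-/- and -0.44 (SE 0.12) in Tert+/+ kidneys (adjusted p = 0.166 and 0.0996). Col23a1, a membrane collagen, was the member whose older kidneys were all above the younger ones, at 21.1 to 32.7 against 10.8 to 14.1 in G3 Tert-/- mice. In Tert+/+ mice its ranges overlapped, 14.5 to 23.4 at 47 weeks and 6.73 to 34.4 at 7 weeks. The log2 fold change of Col23a1 was 1.01 (SE 0.31) in G3 Tert-/- kidneys (adjusted p = 0.0982) and 0.27 (SE 0.31) in Tert+/+ kidneys (adjusted p = 0.808).

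The other type VI chains did not follow Col6a1 past the threshold: Col6a2 had -0.35 in G3 Tert-/- and -0.40 in Tert+/+ kidneys, and Col6a3 had -0.28 and -0.03. Col12a1, Col16a1, Col19a1 and Col22a1, members of the family that decorates fibrils and other matrix networks, lay between -0.09 (Col16a1) and 0.18 (Col12a1) in G3 Tert-/- kidneys and between -0.24 (Col12a1) and 0.34 (Col19a1) in Tert+/+ kidneys. Below the filter were 10 members, with means over all libraries from 1.30 (Col25a1) to 7.16 (Col7a1). By mean level Col7a1 was the closest below the filter and Col13a1, with a mean of 12.7, the closest above it. Of these 10, Col25a1 was at 0 in 9 libraries, Col6a4 in 5, Col11a1 and Col24a1 in 4, Col11a2 in 3 and Col20a1 in 1, and the other 4 were above 0 in every library.

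**Figure D2:**
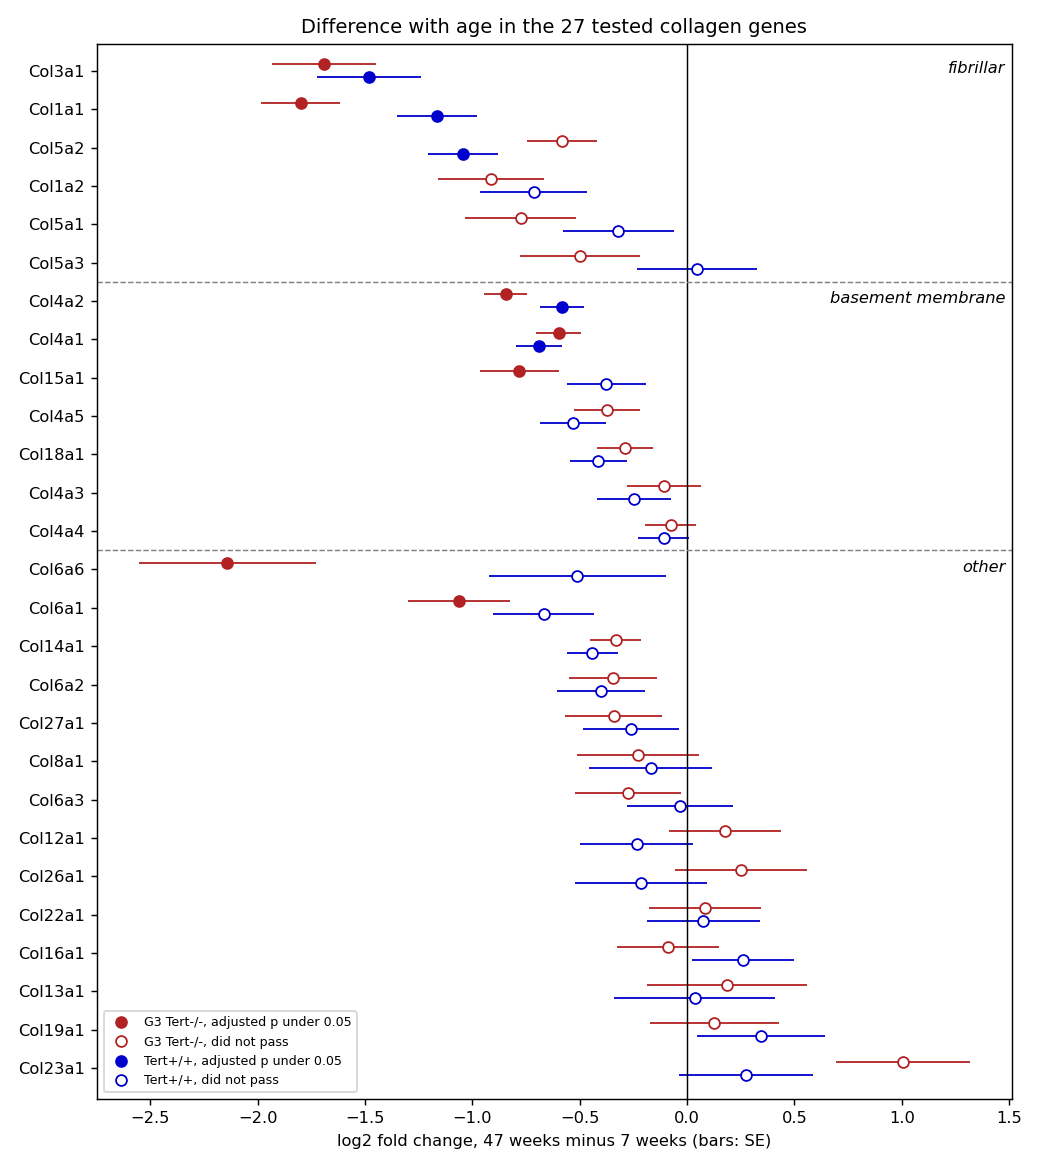
Log2 fold changes (47 weeks minus 7 weeks, horizontal axis, bars 1 SE) of the 27 tested collagen genes (vertical axis, grouped as fibrillar, basement membrane and other) in G3 Tert-/- (red) and Tert+/+ (blue) kidneys, filled where the adjusted p was under 0.05. The filled points lie between -0.58 (Col4a2 in Tert+/+) and -2.14 (Col6a6 in G3 Tert-/-), and Col4a3 and Col4a4 are open, between -0.25 and -0.08.

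With age averaged over both genotypes, a contrast added after the data were seen, 12 of 27 members fell (limma, adjusted p under 0.05) and 0 rose, while 4.49% of all genes passed, 2.43% as lower and 2.06% as higher. Col23a1 (0.64, adjusted p = 0.105) was the higher member with an unadjusted p under 0.05, and edgeR and DESeq2 called 0 members higher. The 12 were the 8 genes that passed in 1 or both genotypes and also Col1a2 (-0.81, SE 0.17, adjusted p = 0.00699), Col14a1 (-0.39, SE 0.08, 0.00717), Col4a5 (-0.45, SE 0.11, 0.0156) and Col18a1 (-0.35, SE 0.09, 0.0298). By sub-group, 4 of 6 tested fibrillar, 5 of 7 basement membrane and 3 of 14 other chains passed, with median log2 fold changes of -0.81, -0.45 and -0.09. Col4a3 and Col4a4 were the 2 basement membrane chains that did not pass, at -0.18 (SE 0.12) and -0.09 (SE 0.08). The call of Col18a1 was lost without any 1 of 6 libraries: replicates 2 and 3 of G3 Tert-/- and replicates 1, 2 and 5 of Tert+/+ at 47 weeks, and replicate 2 of G3 Tert-/- at 7 weeks (adjusted p = 0.0515 to 0.0633). Without both libraries that lay apart, 10 members passed in G3 Tert-/- (9 lower and Col23a1 higher), 6 lower in Tert+/+ and 13 in the mean of both (12 lower and Col23a1 higher). Calls over all genes rose as well, to 664, 130 and 942 of 14500 tested, from 327, 95 and 657 of 14630 in the full fit.

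The fibrillar sum covers types I, III, V and XI only. Col27a1, grouped with the other types, averaged 596 over all libraries and did not pass with age (limma). The summed count of the 8 fibrillar genes was 859 to 1132 at 47 weeks against 1559 to 3527 at 7 weeks in G3 Tert-/- kidneys, and 588 to 1144 against 1318 to 1958 in Tert+/+ kidneys. These ranges did not overlap within either genotype. For the 8 basement membrane genes the sums were 4035 to 5050.2 against 4981 to 6321 in G3 Tert-/- and 4071 to 5869 against 5325 to 6235 in Tert+/+ kidneys, and they overlapped in both. All 37 collagens together took 0.0857% to 0.0964% of reads at 47 weeks and 0.1098% to 0.137% at 7 weeks in G3 Tert-/- kidneys, and 0.0767% to 0.0920% at 47 weeks and 0.106% to 0.119% at 7 weeks in Tert+/+ kidneys.

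Markers of the cells that make interstitial collagen had median log2 fold changes below 0 with age. The 12 fibroblast and pericyte markers (Pdgfra, Pdgfrb, Dcn, Lum and others) summed to 1081 to 1434 at 47 weeks and 1218 to 2021 at 7 weeks in G3 Tert-/- kidneys, and to 985 to 1298 and 1334 to 1622 in Tert+/+ kidneys. Of 11 tested, 0 passed in either genotype (limma), 2 had an unadjusted p under 0.05 in G3 Tert-/- (14.9% of all genes) and 5 in Tert+/+ kidneys (10.6%), and their median log2 fold changes were -0.26 in G3 Tert-/- and -0.37 in Tert+/+ kidneys. In each genotype 7 of the 11 had a log2 fold change below 0 and 4 above it, up to 0.48 in G3 Tert-/- and 0.69 in Tert+/+ kidneys. In the mean of both genotypes Dcn (-0.53, adjusted p = 0.0062) and Meg3 (-1.01, 0.0376) fell. The 6 smooth muscle markers had medians of -0.07 in G3 Tert-/- and 0.01 in Tert+/+ kidneys, and 0 passed (limma). Gli1 was at 0 in 1 library. Dividing-cell markers, 11 of 12 in the table, summed to 152 to 259 at 47 weeks and 271 to 420.1 at 7 weeks in G3 Tert-/- kidneys and to 153 to 229 and 249.8 to 353 in Tert+/+ kidneys, without overlap of the ages. Of 8 tested, Top2a and Cenpf passed as lower in G3 Tert-/- (1.31% of all genes) and Top2a in Tert+/+ kidneys (0.246%). In the mean of both genotypes 4 of the 8 fell (2.43% of all genes). Bub1 was at 0 in 8 libraries and Ccnb2 in 3. The 9 B and plasma cell markers summed to 408 to 9616 at 47 weeks and 277 to 938 at 7 weeks in G3 Tert-/- kidneys and to 2978 to 9388 and 107 to 607 in Tert+/+ kidneys. Of 6 tested, 3 rose with age in Tert+/+ kidneys (0.403% of all genes) and 0 passed in G3 Tert-/- kidneys (limma). In the mean of both genotypes 4 of the 6 rose (2.06% of all genes). The 9 endothelial markers had median log2 fold changes of -0.02 and -0.01, and the 8 podocyte markers had -0.11 and -0.14. In the mean of both genotypes 0 of the 9 endothelial and 1 of the 8 podocyte markers fell (2.43% of all genes). Of 8 proximal tubule markers, Slc5a2 and Slc22a6 fell in G3 Tert-/- kidneys (-0.58 and -0.69, adjusted p = 0.0338 and 0.0399), where 2.24% of all genes passed. In that comparison 5 of the 8 had a log2 fold change above 0 and 3 below it. The medians of the 8 were 0.01 in G3 Tert-/- and -0.12 in Tert+/+ kidneys, where 0 passed (limma). In the mean of both genotypes 3 of the 8 proximal tubule markers fell (2.43% of all genes). The 6 urothelial markers, of the lining of the renal pelvis, had median log2 fold changes of 1.79 in G3 Tert-/- and 1.21 in Tert+/+ kidneys, and 0 passed (limma), with 5 in G3 Tert-/- (14.9% of all genes) and 1 in Tert+/+ kidneys (10.6%) at an unadjusted p under 0.05. The 8 macrophage markers had medians of 0.38 in G3 Tert-/- and 0.31 in Tert+/+ kidneys, and 0 passed in either (limma). At an unadjusted p under 0.05 there were 2 in G3 Tert-/- (14.9% of all genes) and 1 in Tert+/+ kidneys (10.6%). C1qb rose in the mean of both (0.46, adjusted p = 0.0218). The 6 adipocyte markers summed to 269 to 3676 at 47 weeks and 277 to 9777 at 7 weeks in G3 Tert-/- kidneys and to 190.3 to 970.3 and 169 to 3581 in Tert+/+ kidneys, with Adipoq at 0 in 1 library, Lep in 2 and Plin1 in 3. The part of cell make-up in the collagen differences was not tested. In whole tissue, fewer cells of a type and less RNA per cell cannot be told apart.

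**Figure D3:**
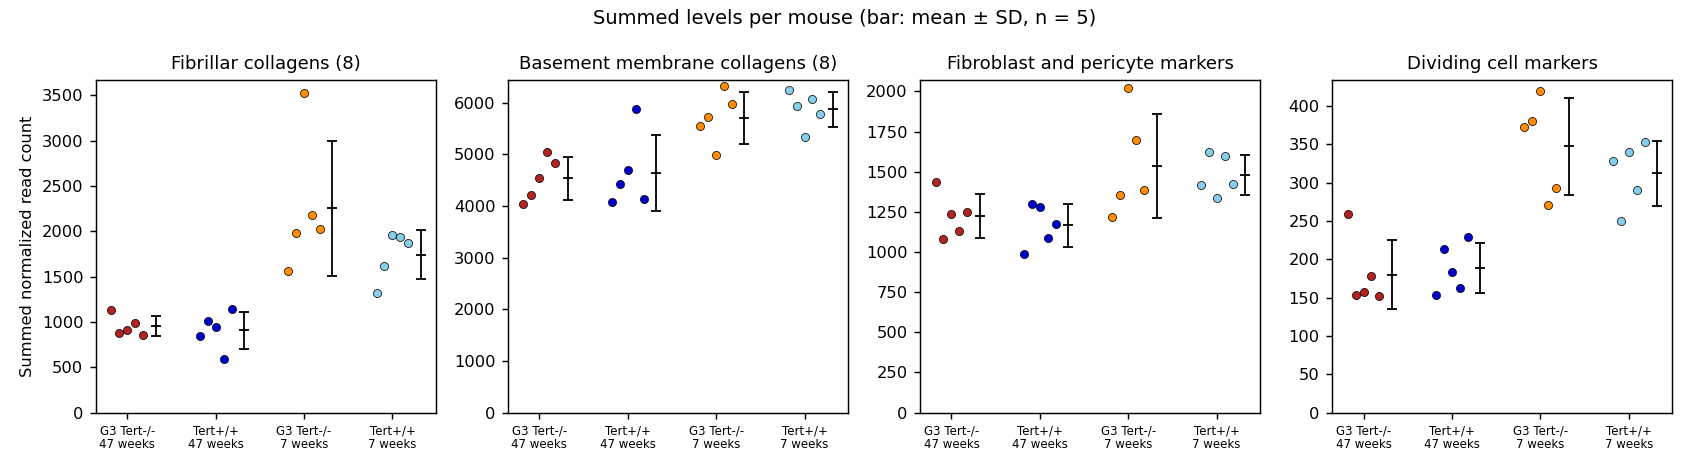
Summed normalized read counts (vertical axes, linear from 0) of the fibrillar collagens, the basement membrane collagens, the fibroblast and pericyte markers and the dividing-cell markers in the 4 groups (horizontal axes), 1 point per mouse with the mean ± SD of 5 mice. The fibrillar sum averaged 952 ± 112 in older and 2254 ± 747 in younger G3 Tert-/- kidneys, and 907 ± 208 in older and 1741 ± 271 in younger Tert+/+ kidneys.

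No collagen gene passed the test between the genotypes. At 47 weeks 0 of 27 members passed between G3 Tert-/- and Tert+/+ kidneys (limma, edgeR and DESeq2), against 0.0957% of all genes by limma, and 4 had an unadjusted p under 0.05 (6.58% of all genes). Those were Col6a6 (-1.22, SE 0.41), Col22a1 (-0.73, SE 0.26), Col4a2 (-0.26, SE 0.10) and Col19a1 (-0.67, SE 0.30), with adjusted p of 0.534 to 0.73. At 7 weeks 0 of 27 passed by the same tools, while limma called 0% of all genes, and 3 had an unadjusted p under 0.05 (10.7% of all genes): Col22a1 (-0.74, SE 0.26), Col1a1 (0.43, SE 0.18) and Col6a3 (0.57, SE 0.25), with adjusted p of 0.435 to 0.451. Averaged over both ages, also added after the data were seen, 0 of 27 passed by any of the 3 tools, 0.0273% of all genes passed by limma, and 3 members had an unadjusted p under 0.05 (11.1% of all genes).

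For the fibrillar chains the 95% intervals give the genotype differences that these data still allow. The log2 fold change of G3 Tert-/- over Tert+/+ kidneys at 47 weeks was -0.20 for Col1a1 (95% interval -0.59 to 0.18), 0.22 for Col1a2 (-0.29 to 0.73) and 0.13 for Col3a1 (-0.37 to 0.63). Without Tert+/+ replicate 4 at 47 weeks, 1 of the libraries that lay apart, the sign turned for Col1a2 (-0.02) and Col3a1 (-0.05), and with array weights for Col3a1 (-0.07). At 7 weeks it was 0.43 for Col1a1 (0.05 to 0.81), 0.41 for Col1a2 (-0.10 to 0.92) and 0.34 for Col3a1 (-0.17 to 0.84). The α1 and α2 chains of type IV were bounded more narrowly, with -0.11 to 0.33 for Col4a1 and -0.47 to -0.05 for Col4a2 at 47 weeks, and -0.20 to 0.24 and -0.21 to 0.21 at 7 weeks.

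Col22a1, a collagen known from the junctions between tissues such as muscle and tendon, was the member with the smallest p over both ages. Its counts were 10.6, 11.3, 11.4, 16.3 and 12.1 in G3 Tert-/- kidneys and 17.6, 18.7, 19.5, 32.7 and 18.9 in Tert+/+ kidneys at 47 weeks. At 7 weeks they were 13.6, 9.79, 9.42, 13.3 and 11.8 in G3 Tert-/- kidneys and 37.4, 21.2, 13.7, 20.3 and 13.5 in Tert+/+ kidneys. The genotypes were separate at 47 weeks, as in 1.44% of all genes that were lower without overlap, and overlapped narrowly at 7 weeks, and the highest Tert+/+ value of each age came from a library that lay apart. Averaged over both ages the log2 fold change was -0.73 (SE 0.18), with an adjusted p of 0.168, which did not pass.

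Whether age acted differently in the genotypes was asked by the interaction, the genotype difference at 47 weeks minus that at 7 weeks. It called 0 of 27 members by limma, edgeR and DESeq2, against 0.00684% of all genes by limma, and 2 members had an unadjusted p under 0.05 (6.22% of all genes). These were Col6a6 (-1.63, SE 0.58, adjusted p = 0.774) and Col1a1 (-0.64, SE 0.26, adjusted p = 0.774). The calls of Col6a1, Col6a6 and Col15a1 in G3 Tert-/- kidneys alone and of Col5a2 in Tert+/+ kidneys alone are therefore not shown to differ between the genotypes.

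**Figure D4:**
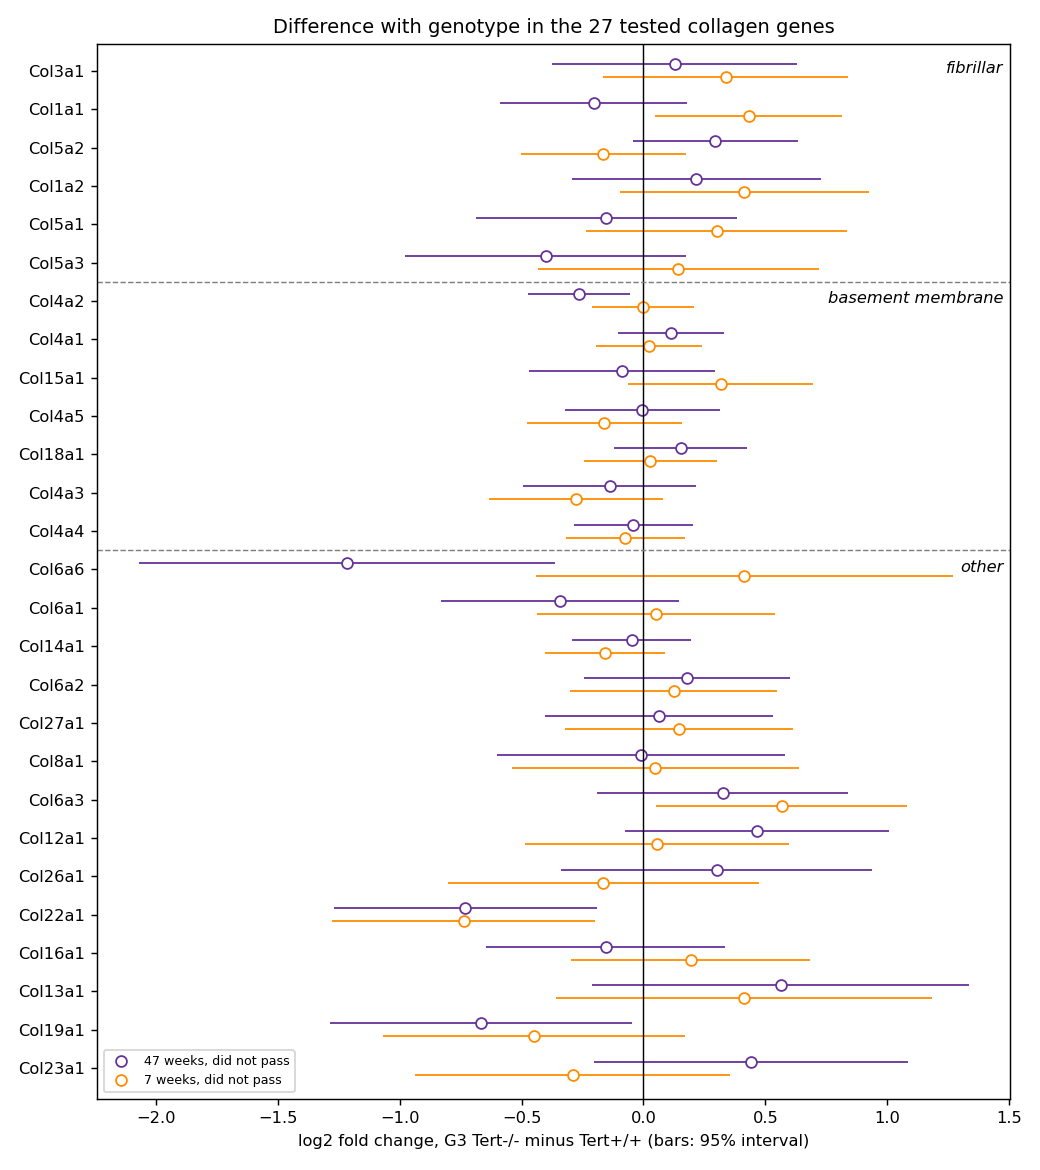
Log2 fold changes (G3 Tert-/- minus Tert+/+, horizontal axis, bars 95% interval) of the 27 tested collagen genes (vertical axis) at 47 weeks (purple) and 7 weeks (orange). Open circles show that 0 of 27 passed at either age, and Col22a1 lies at -0.73 and -0.74.

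Chains of 1 molecule were also compared with each other, as the log2 ratio of their counts within a library, from which the scaling of the library cancels apart from the pseudocount. In older kidneys the ratio of Col4a1 to Col4a2 was 1.18 to 1.69 in G3 Tert-/- mice against 0.85 to 1.08 in Tert+/+ mice, without overlap, a difference of 0.38 (exact two-sided permutation p = 0.00794, the smallest that 5 against 5 allows, and 0.0794 after adjustment over 20 tests). The ratio of Col1a1 to Col1a2 in G3 Tert-/- mice was -1.98 to -1.64 at 47 weeks against -1.22 to -0.54 at 7 weeks, a difference of -0.89 with the same exact p. In Tert+/+ mice the age difference of that ratio was -0.45 (exact p = 0.294). For 5 pairs in 4 comparisons, 0 of 20 ratios passed the adjustment, and 5 had an exact p under 0.05 before it. A single ratio at the smallest exact p cannot pass an adjustment over 20, so this count says little. The Col4a3 to Col4a4 ratio differed by -0.03 with age in G3 Tert-/- and by -0.14 in Tert+/+ mice.

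In the 2 type IV pairs that were tested, partner chains also varied together from mouse to mouse over all 20 libraries. The permutations shuffled deviations from group means across groups and ignored the 4 means removed, so their p-values are somewhat too small. Over the deviations of 20 libraries from their group means, Col4a3 and Col4a4 had a Pearson r of 0.750 (permutation p = 5e-05, adjusted over 5 pairs 0.00025) and a Spearman rho of 0.639 (p = 0.00309, adjusted 0.0154). Col4a1 and Col4a2 had r = 0.606 (permutation p = 0.00456, adjusted 0.0114) and rho = 0.583 (p = 0.00822, adjusted 0.0206). Without the 2 libraries farthest from the median of the first chain, r was 0.533 for Col4a3 and Col4a4 and 0.461 for Col4a1 and Col4a2, each with an adjusted permutation p of 0.093, so that both relations rest in part on those libraries. Without both libraries that lay apart, r was 0.533 for Col4a3 and Col4a4 (adjusted permutation p = 0.0388) and 0.571 for Col4a1 and Col4a2 (0.0323), while rho did not pass, at 0.424 (adjusted permutation p = 0.132) and 0.573 (0.0705). Col1a1 and Col1a2, on different chromosomes, had r = 0.203 (permutation p = 0.385), which was 0.594 (p = 0.0105, adjusted 0.0323) without both libraries that lay apart, where rho was 0.432 and did not pass (adjusted permutation p = 0.132). The pairs Col5a1 with Col5a2 and Col6a1 with Col6a2 had r = -0.129 (permutation p = 0.592) and 0.0236 (permutation p = 0.92).

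**Figure D5:**
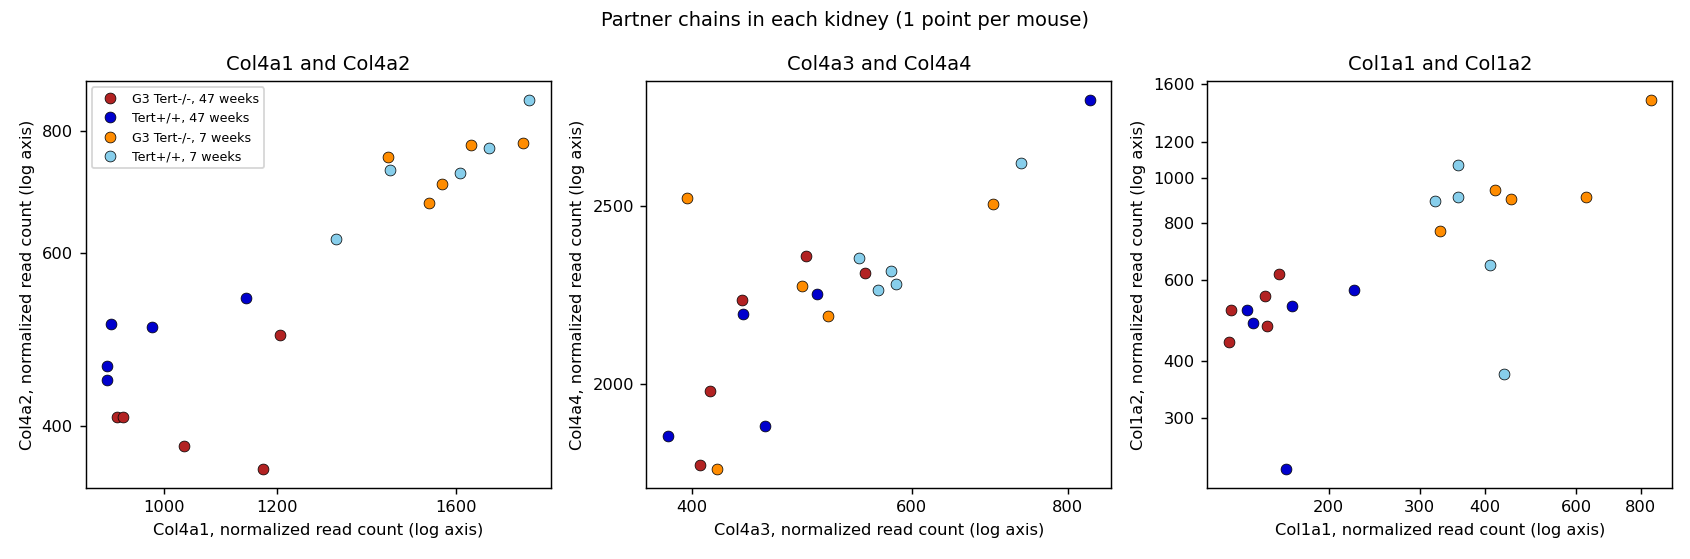
Normalized read counts of partner chains in each kidney (both axes logarithmic), Col4a2 against Col4a1, Col4a4 against Col4a3 and Col1a2 against Col1a1, 1 point per mouse and 1 colour per group. Older kidneys (red and dark blue) lie apart from younger ones (orange and light blue) in the first panel and mix with them in the second.

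Genes that fold, process, bind or degrade collagen were followed in 5 lists. Among proteins that bind fibrils or the matrix, 2 of 14 tested fell with age in each genotype, Sparc and Fn1 in both. Over all tested genes, 1.31% passed as lower in G3 Tert-/- and 0.246% in Tert+/+ kidneys. Sparc, which encodes a collagen-binding glycoprotein of matrix assembly, had 882 to 1189 at 47 weeks and 1969 to 3188 at 7 weeks in G3 Tert-/- kidneys, and 987 to 1436 and 1802 to 2472 in Tert+/+ kidneys. Its log2 fold change was -1.16 (SE 0.13) in G3 Tert-/- (adjusted p = 9.77e-06) and -0.90 (SE 0.13) in Tert+/+ kidneys (adjusted p = 0.000859). Fn1, fibronectin, had -1.003 (SE 0.16, adjusted p = 0.000608) in G3 Tert-/- and -0.99 (SE 0.16, 0.00137) in Tert+/+ kidneys. The median of the 14 was -0.02 in G3 Tert-/- and -0.21 in Tert+/+ kidneys.

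Of 13 tested genes for propeptide cleavage and cross-linking, 2 fell with age in G3 Tert-/- kidneys, where 1.31% of all genes passed as lower. Pxdn, peroxidasin, which forms the sulfilimine bonds of type IV collagen, had 39.1, 33.8, 25.97, 32.7 and 32.3 at 47 weeks and 44.5, 67.5, 82.9, 63.9 and 48.2 at 7 weeks (log2 difference -0.86, SE 0.18, adjusted p = 0.00903). Loxl2, a lysyl oxidase that cross-links type IV collagen, had -0.94 (SE 0.21, adjusted p = 0.0178). In Tert+/+ kidneys 0 of 13 passed (limma) and 5 had an unadjusted p under 0.05 (10.6% of all genes). Pxdn had -0.50 (SE 0.18) and Loxl2 -0.75 (SE 0.21) in those kidneys (adjusted p = 0.28 and 0.125).

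Of 21 tested genes for folding and modification in the endoplasmic reticulum, 0 passed in G3 Tert-/- kidneys (limma). There 1 had an unadjusted p under 0.05 (14.9% of all genes). In Tert+/+ kidneys Plod2, a lysyl hydroxylase that prepares collagen for cross-linking, fell (-0.71, SE 0.13, adjusted p = 0.00857) and P3h4, a subunit of a collagen-modifying complex, rose (0.92, SE 0.22, adjusted p = 0.0467). Over all tested genes in Tert+/+ kidneys, 0.246% passed as lower and 0.403% as higher. Among 9 tested collagen receptors, Cd36 fell in G3 Tert-/- kidneys (-0.64, SE 0.16, adjusted p = 0.0385), where 1.31% of all genes passed as lower. In Tert+/+ kidneys 0 passed, and 2 had an unadjusted p under 0.05 (10.6% of all genes). Cd36 also takes up fatty acids and is not a receptor for collagen alone. Of 9 tested genes for collagen breakdown, 0 passed in either genotype (limma), with medians of -0.19 in G3 Tert-/- and -0.19 in Tert+/+ kidneys. At an unadjusted p under 0.05 there were 2 in G3 Tert-/- (14.9% of all genes) and 2 in Tert+/+ kidneys (10.6%). Between genotypes, 0 genes of the 5 lists, with 21, 13, 14, 9 and 9 tested genes, passed at either age (limma). At an unadjusted p under 0.05 there was 1 at 47 weeks (6.58% of all genes), in the breakdown list. At 7 weeks there were 5 (10.7% of all genes), at most 2 in any list.

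In the age contrast averaged over both genotypes, where 4.49% of all genes passed, each of the 5 lists held at least 1 passing gene. For folding and modification, 3 of 21 fell and 1 rose: Plod2 (-0.55, adjusted p = 0.00103), P4ha1, the catalytic subunit of a prolyl hydroxylase (-0.47, 0.0211), and Plod1, another lysyl hydroxylase (-0.33, 0.0271), fell, and P3h4 (0.58, 0.0283) rose. For cleavage and cross-linking, 4 of 13 fell, which were Pxdn (-0.68, adjusted p = 0.00198), Loxl2 (-0.84, 0.00123), Lox, the lysyl oxidase of fibrils (-0.91, 0.00693), and Adamts2, which removes the amino-terminal propeptide of fibrillar chains (-0.63, 0.0201). Beside Sparc and Fn1, the fibril-binding proteoglycan Dcn, which is also among the fibroblast markers, fell (-0.53, adjusted p = 0.0062). Of the receptors Cd36 (-0.55, adjusted p = 0.00641) and Cd93 (-0.41, 0.0209) fell, and of the breakdown list Timp3, an inhibitor of the enzymes that degrade matrix (-0.27, 0.0342), did.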

How the data were processed

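Whole-kidney RNA (300 ng per library, mean quality score 6.6, range 5.0 to 7.5, per the labels' protocols) was sequenced with a stranded 3′ end kit (QuantSeq). The sources used here give no quality for single libraries. The signal that the authors deposited is a normalized read count per gene and library, on GRCm38. Per the submitters' processing notes, which give no roles, the tools were TopHat2 2.0.10, HTSeq 0.6.1, Bowtie 1.0.0, DESeq2, SAMtools 0.1.19 and FastQC 0.11.7. In every library, 100% of values were whole multiples of 1 step (0.8304 to 1.1261, relative tolerance 1e-06), which gave back 7161690 to 9757594 reads. Where a count is 0, up to 3 reads (2.49 to 3.38 normalized) remain possible, from counting error only. Replicate numbers follow the order of the libraries and pair no mice.

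Genes with at least 10 in at least 5 libraries (14630) were transformed to log2(count + 1) and fitted with limma 3.58.1 (R 4.3.3, intensity trend) as 4 group means over 20 libraries. All contrasts are G3 Tert-/- minus Tert+/+ or 47 weeks minus 7 weeks, two-sided. P-values were adjusted over the 14630 genes by the Benjamini-Hochberg method, with a threshold of 0.05. Alternatives were other pseudocounts, no filter, TMM scaling, edgeR 4.0.16 and DESeq2 1.42.0 on the recovered counts, array weights, only the 2 groups compared, and libraries left out. The fit was tested on simulated data. Partner-chain ratios used exact permutation tests, and correlations used 100000 resamples.

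Every gene of the name pattern is a member. Values per library are given for members past the threshold in any comparison and for chosen chains of types I, III, IV, XV and XVIII, and from each pathway list up to 5 passing genes per comparison, by smallest p, are named. Col22a1, Col23a1 and the others given by range were chosen after their values were seen. Members, lists and the libraries left out were chosen with earlier results of these data known. Positions are from GENCODE M21 (GRCm38), in which all 37 members matched, and promoter windows from RefSeq (GRCm38.p6), matched by symbol.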

Additional observations from a re-analysis of the deposited data

Results flagged for a closer look

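In 14 members, each of the 4 groups of 5 was searched for a library far from the other 4 (Dixon's test, critical value 0.71), 56 groups in all, of which chance alone marks about 1 in 20. It marked 4 values. Col14a1 was 343 in G3 Tert-/- kidneys at 7 weeks, replicate 4, below 429 to 437 in the other 4. Col1a2 was 232 in Tert+/+ kidneys at 47 weeks, replicate 4, below 484 to 571 in the others. In Tert+/+ kidneys at 7 weeks, replicate 1, Col4a3 was 734, above 544 to 583 in the others, and Col4a4 was 2637, above 2249.6 to 2342. The last 3 values come from the 2 libraries that lay apart on the first principal component, and their cause was not tested.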

How the results depend on the processing

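Every collagen gene called with age under an alternative was lower in older kidneys except Col23a1, called higher with DESeq2, array weights, 2 groups only, and without Tert+/+ replicate 1 at 7 weeks or both libraries that lay apart. With array weights, 11 members passed with age in G3 Tert-/- kidneys (10 lower and Col23a1 higher) in place of 7, and 8, all lower, in Tert+/+ kidneys in place of 5, and the cause was not tested. Among all genes, array weights called 1007 with age in G3 Tert-/- kidneys in place of 327, 367 in Tert+/+ kidneys in place of 95, and 95 with genotype at 47 weeks in place of 14, DESeq2 called 530, 211 and 52, and edgeR 341, 108 and 15. Of the 5 correlations of partner chains, 2 passed over all libraries and 0 without the 2 libraries farthest from the median. Leaving out 1 library at a time gave 6 to 9 members with age in G3 Tert-/- kidneys, 5 to 6 in Tert+/+ kidneys and 11 to 13 in the mean of both, and 0 in each genotype comparison and the interaction. Over 24 called gene results, 11 of 480 such refits lost the call, 5 for Col15a1 in G3 Tert-/- kidneys and 6 for Col18a1 in the mean of both genotypes (highest adjusted p = 0.0633). Of 204 other refits, 1 lost it, again Col15a1 with only the 2 groups fitted (adjusted p = 0.0514), and no called gene changed direction. Col1a2 in G3 Tert-/- kidneys gained the call with a pseudocount of 5, edgeR, DESeq2, array weights, 2 groups only, or without replicate 4 at 47 weeks or replicate 1 or 3 at 7 weeks of Tert+/+ mice (adjusted p = 0.0162, 0.013 and 0.0467). Col5a2 in G3 Tert-/- kidneys gained it with DESeq2 (adjusted p = 0.0389), array weights (0.0226), and without older G3 Tert-/- replicate 1 or 5 or both libraries that lay apart. No paired analysis was possible because the labels give no replicate numbers. Without the filter, 0 of the 10 members below it were called, and the same 7, 5 and 12 members passed with age.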
